A study of Mus musculus with 12 samples.

Results

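Carbonic anhydrases are zinc enzymes that interconvert carbon dioxide and bicarbonate, and 8 mouse genes of the family were followed here: Car1, Car2, Car3, Car4, Car5b, Car8, Car12 and Car13. They were taken by symbol and all 8 were among the 55291 symbols counted. In blood the cytosolic enzymes of red cells speed the uptake of carbon dioxide in tissues and its release in the lung, and on the lung capillary wall a membrane-anchored enzyme acts on plasma bicarbonate. Other members sit in mitochondria, on epithelial and stromal cell membranes, or in the cytosol of muscle, fat and bone-resorbing cells. Car8 lacks the zinc-binding residues of the catalytic site and does not hydrate carbon dioxide.

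RNA was sequenced from low-input libraries of cells that the labels call Vecad+ (VE-cadherin-positive) endothelial cells, taken from VECadCre-tdTomato mice, in which Cre driven by the VE-cadherin promoter switches on a red fluorescent reporter. BM-AML and Lung-AML libraries came from bone marrow and lung of such mice after transplantation of acute myeloid leukaemia (AML) cells labelled Trp53(R172H/delta), and BM-Ctrl and Lung-Ctrl libraries came from mice of that line that were not transplanted. Each of the 4 groups had 3 libraries. All 12 libraries thus share the VECadCre-tdTomato background, and the labels give neither the age of the mice, nor the time after transplantation, nor whether the Cre is inducible. Constitutive VE-cadherin Cre lines are also known to mark blood cells that descend from endothelium. The labels do not say whether libraries of a group came from separate mice, so p-values measure only the spread between these libraries.

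Levels are counts per M of library counts (CPM), scaled by trimmed-mean (TMM) factors, and totals lay between 12.8 and 39.2 M counts per library. A gene was called changed at a Benjamini-Hochberg adjusted p under 0.05 in the edgeR quasi-likelihood test over all 18147 genes tested, which included all 8 members. The labelled cell type was checked on 16 pan-endothelial markers. None was at 0 in any group, but their summed level was 125 to 212 CPM in BM-Ctrl and 153 to 207 CPM in BM-AML, against 2269 to 7537 CPM in Lung-Ctrl and 266 to 985 CPM in Lung-AML. In BM-AML, Esam held 78.4 and Egfl7 72.1 CPM of the mean sum of 182 CPM. In BM-Ctrl they held 24.0 and 40.4 of 178 CPM. From BM-Ctrl to BM-AML, 1 of the 16 rose and 7 fell, with a median log2 change of −2.10. Cdh5, which encodes VE-cadherin itself, averaged 4.91 ± 1.51 CPM in BM-Ctrl, 0.633 ± 0.290 CPM in BM-AML, 188 ± 143 CPM in Lung-Ctrl and 15.9 ± 14.4 CPM in Lung-AML (SD, n = 3). Markers of other cells were far higher: 10 alveolar type 2 genes summed to between 165979 and 268792 CPM in the lung libraries, and 15 erythroid genes to between 8644 and 11004 CPM in BM-Ctrl. The 12 marrow stromal and osteolineage genes summed to 15651 to 21601 CPM in BM-Ctrl and 12356 to 21926 CPM in BM-AML. In BM-AML, 10 pericyte and smooth muscle genes summed to 2556 to 9355 CPM and the erythroid genes to 556 to 1875 CPM. Levels below are therefore those of these libraries as a whole, in which fewer cells of a type and less RNA per cell cannot be told apart.

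The family took a far larger share of the counts in control marrow than elsewhere. The 8 genes together held 1.17% ± 0.0903 of all counts in BM-Ctrl (SD, n = 3), with 1.16%, 1.08% and 1.26% in libraries 1, 2 and 3. In BM-AML the share was 0.223% ± 0.132, from 0.128% to 0.374%. Lung-Ctrl had 0.0612% ± 0.0130 and Lung-AML 0.0413% ± 0.00535. The 2 marrow groups did not overlap, nor did either overlap with a lung group, while the lung groups did not overlap with each other by a narrow margin (0.0465% as the lowest Lung-Ctrl value and 0.0450% as the highest Lung-AML value). Exact 95% binomial intervals, which cover counting error only, reached from 0.0344% to 0.0359% for the smallest share, and from 1.258% to 1.268% for the largest.

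Divided by exon length, so that genes can be set side by side, the members ranked differently in each group. In BM-Ctrl the order was Car2 at 3885 CPM per kb, Car1 at 1762 and Car3 at 155, with Car13 at 3.22 CPM per kb next, and these neighbours did not overlap between libraries. Car8, Car4, Car12 and Car5b all averaged under 1 CPM per kb there, and each overlapped with its neighbour in that order. In BM-AML, Car2 at 505 and Car1 at 424 CPM per kb overlapped, and Car4 came next at 14.2 CPM per kb, overlapping with Car3 at 11.0. Lung-Ctrl was led by Car4 at 108 CPM per kb, Car2 at 70.5 and Car8 at 64.6, each overlapping with its neighbour, while Car1 followed at 1.6. In Lung-AML, Car2 at 74.6 and Car8 at 51.5 CPM per kb overlapped at the top, and Car4 at 19.1 and Car1 at 18.5 overlapped after them. Taking the longest transcript as the length swapped Car8 with Car4 in BM-Ctrl and Car13 with Car5b in Lung-Ctrl and left the order in the AML groups as it was.

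**Figure D1:**
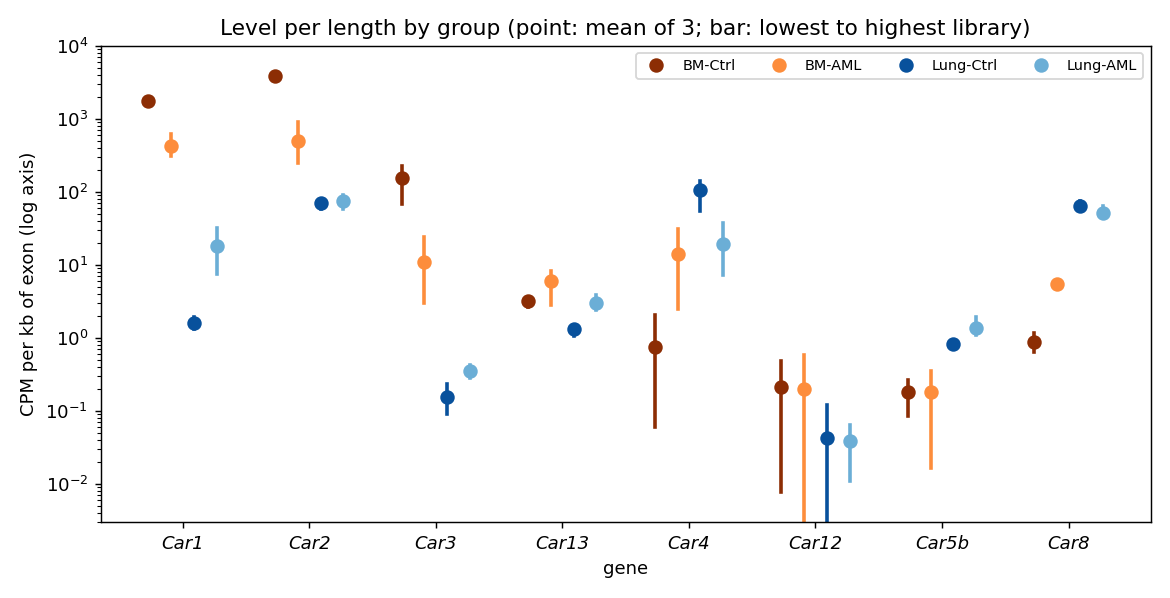
Level per length of the 8 carbonic anhydrase genes in the 4 groups, in CPM per kb of exon on a log axis. Points are means of 3 libraries and bars run from the lowest to the highest library (a bar that leaves the axis at the bottom reaches 0). Car2, Car1 and Car3 lead in BM-Ctrl, at 3885, 1762 and 155 CPM per kb, whereas Car4, Car2 and Car8 lead in Lung-Ctrl.

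The cytosolic members Car13, Car1, Car3 and Car2 lie in this order within 259.044 kb of chromosome 3 in GRCm38. Car13 spans chr3:14641727-14663002, Car1 chr3:14766216-14808368 on the minus strand, Car3 chr3:14863512-14872523 and Car2 chr3:14886273-14900770. The gap between Car3 and Car2 is 13.749 kb. The other members lie apart: Car4 at chr11:84957786-84966044, Car5b at chrX:163976822-164027997, Car8 at chr4:8143362-8239041 and Car12 at chr9:66713686-66766845. No member shares exon bases with another annotated gene, so counting without regard to strand does not mix them with a neighbour.

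With AML in the marrow, Car1, Car2 and Car3 fell and Car4 and Car8 rose, while Car5b, Car12 and Car13 did not pass the test. These 5 of 8 members compare with 43.8% of all genes tested (23.5% lower, 20.4% higher), so the number called is near that of the genome at large. The libraries of the 2 groups did not overlap for 5 of 8 members, against 47.8% of all genes. The median log2 fold change was −0.08 over the members and −0.11 over all genes tested. With AML in the lung only Car1 passed, a rise, in a comparison in which 2.33% of all genes were called, and the median was 0.42 over the members and 0.00 over all genes. The lung groups did not overlap for 5 of 8 members, against 35.0% of all genes.

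**Figure D2:**
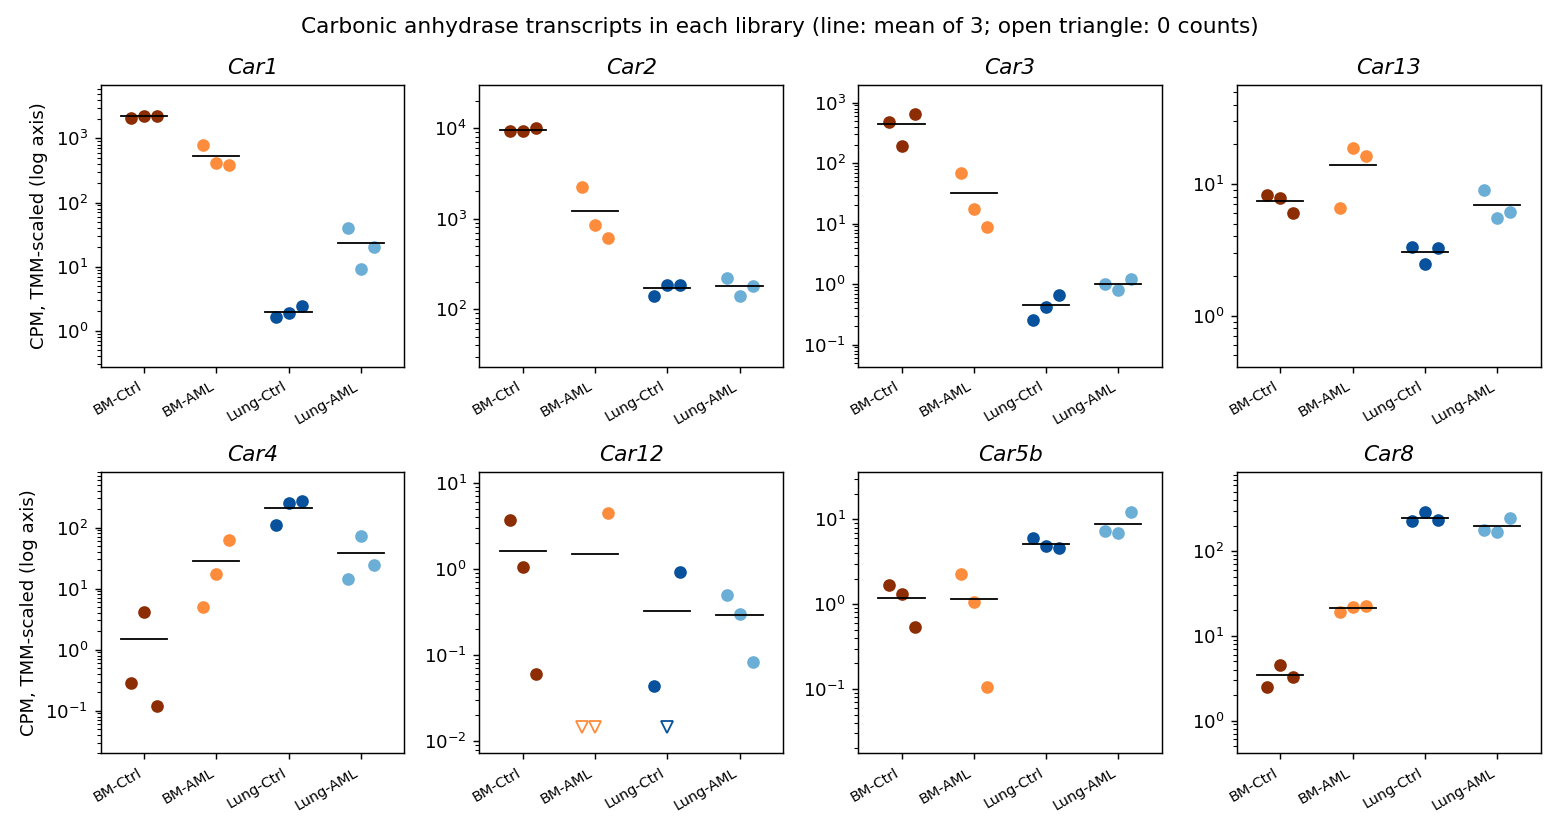
Level of each member in every library, in TMM-scaled CPM on a log axis, with a line at the mean of 3 libraries and open triangles for 0 counts. Car1, Car2 and Car3 are highest in the 3 BM-Ctrl libraries. Car4 and Car8 are highest in the 3 Lung-Ctrl libraries or, for Car8, in both lung groups, whose ranges overlap.

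Car2, the fast cytosolic enzyme of red cells that osteoclasts also use to acidify bone, was the most abundant member in marrow. It stood at 9126, 9197 and 9902 CPM in BM-Ctrl libraries 1, 2 and 3 and at 2207, 854 and 607 CPM in BM-AML. All BM-AML values were below all BM-Ctrl values, and library BM-AML 1 was the highest of its group. The fall was 7.70-fold (log2 −2.94 ± 0.42 SE, adjusted p = 0.000317). In lung the values were 141, 186 and 185 CPM in Lung-Ctrl and 223, 140 and 179 CPM in Lung-AML, and the groups overlapped (log2 0.08 ± 0.39, adjusted p = 0.971). Without library BM-AML 1 the marrow change was log2 −3.68.

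Car1, the slower and abundant cytosolic enzyme of the red cell, fell in marrow and rose in lung. Its levels were 2086, 2234 and 2279 CPM in BM-Ctrl and 787, 413 and 385 CPM in BM-AML, with no overlap. The marrow fall was 4.16-fold (log2 −2.06 ± 0.45, adjusted p = 0.00341). Lung-Ctrl libraries held 1.65, 1.92 and 2.40 CPM and Lung-AML libraries 39.8, 9.28 and 20.0 CPM, again without overlap. That rise was 11.5-fold (log2 3.53 ± 0.49, adjusted p = 0.00619). It was log2 2.88 without library Lung-AML 1, the highest of the group, and the lowest BM-AML library still exceeded the highest Lung-AML library.

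Markers of the erythroid lineage were set beside both genes. Of 15 erythroid genes tested, 14 fell and 0 rose with AML in marrow, where the summed level went from 8644 to 11004 CPM in BM-Ctrl to 556 to 1875 CPM in BM-AML. In lung 6 of 15 rose and 0 fell (Klf1, Gata1, Ermap, Rhag, Tspo2 and Kel), with sums of 26.8 to 34.3 CPM in Lung-Ctrl and 53.4 to 179 CPM in Lung-AML, and no listed gene was at 0 in any group. Library BM-AML 1 had the highest erythroid sum of its group, as Lung-AML 1 had of its own. Of the osteoclast list, 3 of 6 genes tested rose and 1 fell in marrow, where sums were 465 to 606 CPM in BM-Ctrl and 180 to 292 CPM in BM-AML and the fusion genes Ocstamp and Dcstamp were at 0 in both groups. The gene that fell, Acp5, held 460 of the mean sum of 535 CPM in BM-Ctrl and 79.9 of 228 CPM in BM-AML. Ctsk, the next by level, averaged 69.7 and 123 CPM. In lung the median log2 change was 2.25 over the 15 erythroid genes, of which 9 did not pass. The log2 change of Car2 there was 0.08, which did not pass. The part of these cells in the Car1 and Car2 results was not tested.

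Ratios of counts within a library do not depend on scaling. Car2 counts per Car1 count were 4.38, 4.12 and 4.35 in BM-Ctrl and 2.80, 2.07 and 1.57 in BM-AML. In Lung-Ctrl the ratio was 85.6, 96.7 and 77.1, and in Lung-AML 5.60, 15.1 and 8.91. The AML libraries thus lay below the controls in both tissues without overlap. Per count of the summed erythroid list, Car2 reached 0.883, 0.836 and 1.15 in BM-Ctrl and 1.18, 0.801 and 1.09 in BM-AML, and these overlapped (exact permutation p = 0.9, two-sided, adjusted 0.9 over 14 tests of ratios). Car1 per erythroid count was 0.202, 0.203 and 0.264 in BM-Ctrl and 0.420, 0.387 and 0.694 in BM-AML, higher in every AML library. In lung, Car1 per erythroid count was 0.0481, 0.0716 and 0.0890 in Lung-Ctrl and 0.222, 0.174 and 0.211 in Lung-AML, while Car2 per erythroid count was lower with AML, at 4.12, 6.93 and 6.86 against 1.24, 2.62 and 1.88. Each of these non-overlapping ratios had an exact permutation p of 0.1 (adjusted 0.127), the smallest that 3 libraries against 3 allow, so none could pass 0.05.

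**Figure D3:**
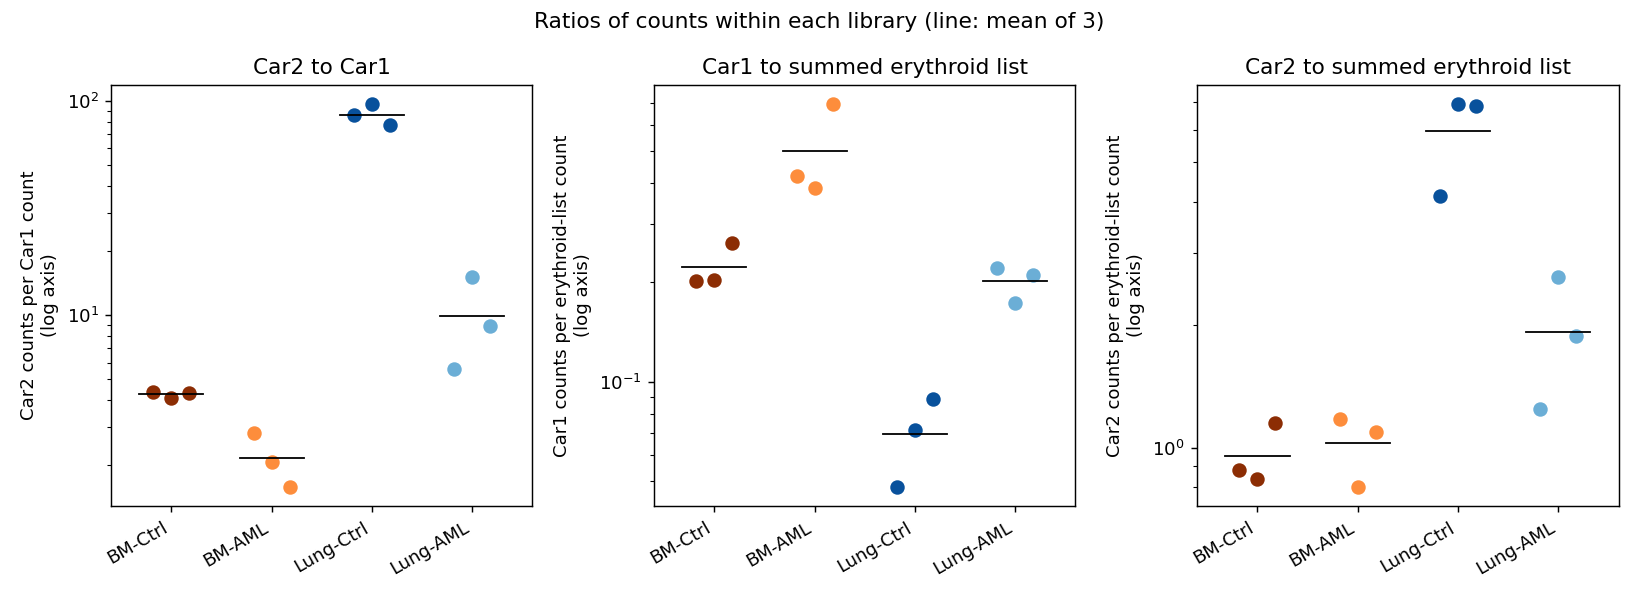
Ratio of counts within each library on log axes: Car2 to Car1, Car1 to the summed erythroid list and Car2 to that list, with a line at the mean of 3. Car2 to Car1 is lower in AML libraries of both tissues, and Car2 to the erythroid list overlaps between BM-Ctrl (0.836 to 1.15) and BM-AML (0.801 to 1.18).

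Car3, a cytosolic member of low activity known from skeletal muscle and fat, had the steepest fall among members in marrow. BM-Ctrl libraries held 484, 195 and 654 CPM and BM-AML libraries 68.7, 17.4 and 8.65 CPM. The groups did not overlap, and BM-Ctrl 2 was the lowest control. The fall was 14.1-fold (log2 −3.82 ± 0.71, adjusted p = 0.00133), and it was log2 −5.09 without library BM-AML 1. In lung the gene was near its limit, at 0.261, 0.422 and 0.666 CPM in Lung-Ctrl and 0.994, 0.812 and 1.21 CPM in Lung-AML, which did not overlap but did not pass (log2 1.13 ± 0.85, adjusted p = 0.612). Of the marrow stromal and osteolineage list, 5 of 12 genes fell in marrow (Bglap, Bglap2, Col1a1, Col1a2 and Alpl) and 4 rose (Cxcl12, Lepr, Kitl and Spp1). The list summed to 15651 to 21601 CPM in BM-Ctrl and 12356 to 21926 CPM in BM-AML. Spp1 held 930 of the mean sum of 19581 CPM in BM-Ctrl and 8183 of 16001.5 CPM in BM-AML. Col1a2 held 7302 and 1424 CPM of these sums. The skeletal muscle list summed to 76.5 to 111 CPM and 50.5 to 78.4 CPM in these groups, with 1 of 6 genes tested higher and 1 lower, and the myosin genes Myh1 and Myh4 and the troponin gene Tnnc2 were at 0 in both. Adipocyte genes summed to 229 to 282 CPM and 618 to 1286 CPM, with 2 of 6 genes tested higher and 0 lower. Pnpla2, a lipase gene, averaged 48.1 and 445 CPM and Fabp4, a fatty acid carrier gene, 64.0 and 303 CPM, whereas the lipid droplet genes Plin1 and Cidec were at 0 in BM-AML and Lep and Pck1 were at 0 in both groups. The part of these cells in the Car3 result was not tested.

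Car13, a cytosolic member of broad distribution, varied least over the 12 libraries, with a spread of 0.83 on the log2 scale against 1.67 to 3.97 for the other members. It stood at 8.32, 7.83 and 6.04 CPM in BM-Ctrl, 6.53, 18.9 and 16.5 CPM in BM-AML, 3.34, 2.46 and 3.29 CPM in Lung-Ctrl and 8.94, 5.56 and 6.11 CPM in Lung-AML. The marrow groups overlapped through library BM-AML 1 (log2 0.92 ± 0.42, adjusted p = 0.0994), and without that library the change passed at log2 1.26 (adjusted p = 0.0134). The lung groups did not overlap, with a difference of log2 1.18 ± 0.43 that did not pass (adjusted p = 0.183). Under DESeq2 both differences passed, with adjusted p of 0.0335 in marrow and 0.0400 in lung.

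Car4, the enzyme anchored by a lipid tail to the luminal face of lung capillaries, went in opposite directions by tissue. BM-Ctrl libraries held 0.279, 4.07 and 0.120 CPM and BM-AML libraries 4.92, 17.6 and 61.5 CPM. The groups did not overlap, but each spread widely, with BM-Ctrl 2 and BM-AML 3 the highest of their groups. The rise was 18.6-fold (log2 4.22 ± 1.20, adjusted p = 0.0147). Lung-Ctrl libraries held 109, 253 and 274 CPM and Lung-AML libraries 14.3, 74.0 and 24.5 CPM. These did not overlap either, yet the difference of log2 −2.50 ± 1.06 did not pass (adjusted p = 0.263), whereas limma-voom with quality weights called it (log2 −2.81, adjusted p = 0.00536). In marrow the call was lost under limma-voom (adjusted p = 0.137), with no expression filter (0.0609) and without BM-Ctrl 1 (0.0527), and the change was log2 7.04 without BM-Ctrl 2 and 2.92 without BM-AML 3.

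Endothelial and lung epithelial markers were set beside Car4. In marrow, 6 of 10 aerocyte markers (genes of the lung capillary cell that carries Car4) rose with AML and 1 fell (Cyp4b1). Over all genes tested there, 20.4% were higher and 23.5% lower. The list summed to 109 to 123 CPM in BM-Ctrl and 263 to 593 CPM in BM-AML. Emp2 held 22.05 of the mean sum of 118 CPM in BM-Ctrl and 100.8 of 397 CPM in BM-AML. Cyp4b1 held 26.88 and 11.96 CPM of these sums. The part of aerocytes in the marrow rise of Car4 was not tested. Of the 16 pan-endothelial genes 1 rose and 7 fell in marrow, while in lung 9 fell and 0 rose. In lung 1 of 10 aerocyte genes fell, beside 1.16% of all genes lower there. The aerocyte list summed to 1877 to 2628 CPM in Lung-Ctrl and 1133 to 1481 CPM in Lung-AML, with a median log2 change of −1.03. The Car4 count per pan-endothelial count was 0.0481, 0.0335 and 0.0854 in Lung-Ctrl and 0.0537, 0.0751 and 0.0506 in Lung-AML, and these overlapped (exact permutation p = 0.8, adjusted 0.861). Per aerocyte count it was 0.0581, 0.0961 and 0.113 in Lung-Ctrl and 0.0126, 0.05 and 0.0186 in Lung-AML, without overlap (exact permutation p = 0.1, adjusted 0.127). In marrow that ratio was 0.00226, 0.0374 and 0.000972 in BM-Ctrl and 0.0146, 0.0669 and 0.104 in BM-AML, and the groups overlapped (exact permutation p = 0.2, adjusted 0.233). Per pan-endothelial count, Car4 in marrow was 0.00223, 0.0206 and 0.000564 in BM-Ctrl and 0.0262, 0.115 and 0.297 in BM-AML. These did not overlap (exact permutation p = 0.1, adjusted 0.127). Alveolar type 2 genes, of which 1 rose and 2 fell in marrow, summed to 857, 3147 and 1003 CPM in BM-Ctrl and 454, 327 and 1734 CPM in BM-AML, so the libraries highest in Car4 were also the highest of their groups in this list. Car4 counts per 1000 alveolar type 2 counts were 0.326, 1.29 and 0.119 in BM-Ctrl and 10.8, 53.8 and 35.5 in BM-AML, above the 0.568 to 1.52 of Lung-Ctrl in every BM-AML library.

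The promoter of Car4 is shown because this gene was the one member with a promoter entry that was called with AML. RefSeq promoter windows on GRCm38.p6, from 250 bases before to 50 bases after the start, were matched for 3 of 8 members (Car4, Car5b and Car12). The window of Car4 is chr11:84957504-84957803 on the plus strand, with a match to the hypoxia response core in capitals.
Car4: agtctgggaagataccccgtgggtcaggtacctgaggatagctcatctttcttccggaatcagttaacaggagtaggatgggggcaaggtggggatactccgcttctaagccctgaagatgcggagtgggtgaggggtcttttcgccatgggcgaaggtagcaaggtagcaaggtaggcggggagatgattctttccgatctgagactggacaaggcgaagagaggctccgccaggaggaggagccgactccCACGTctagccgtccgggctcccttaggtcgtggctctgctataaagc
The letters ACGTG, searched on both strands, occurred once, read here as their reverse complement from base 3 after the start, and 19.7% of 27025 promoter windows held them. TATAAA occurred from base 43 after the start, as it did somewhere in 14.2% of windows. The GATA letters AGATAA and TGATAA (11.4% and 9.26% of windows), the box CCACCC (30.9%) and CCAAT (37.9%) had no match in this window. Of these motifs, the windows of Car5b and Car12 held a single match, CCAAT in Car5b.

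Car8, the family member without catalytic activity, known as a partner of the inositol trisphosphate receptor in Purkinje cells, was a gene of the lung libraries that rose in AML marrow. It stood at 225, 289 and 232 CPM in Lung-Ctrl and 178, 169 and 248 CPM in Lung-AML, which overlapped (log2 −0.33 ± 0.22, adjusted p = 0.555). BM-Ctrl libraries held 2.46, 4.57 and 3.29 CPM and BM-AML libraries 18.9, 22.1 and 22.8 CPM. The marrow groups were tight and far apart, and the rise was 6.18-fold (log2 2.63 ± 0.24, adjusted p = 2.75e-05). It passed under all 22 alternatives, between log2 2.43 and 2.95. Per 1000 alveolar type 2 counts, Car8 was 2.88, 1.45 and 3.28 in BM-Ctrl, 41.6, 67.5 and 13.2 in BM-AML and 1.11 to 1.74 in Lung-Ctrl. The 8 of 10 pericyte and smooth muscle genes that rose in marrow summed, over the list, to 207 to 692 CPM in BM-Ctrl and 2556 to 9355 CPM in BM-AML, and their part in the Car8 and Car4 results was not tested.

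Car12, a transmembrane enzyme with its active site outside the cell, and Car5b, the mitochondrial enzyme that feeds bicarbonate to carboxylases, were low throughout. Car12 reached 3.72, 1.05 and 0.0598 CPM in BM-Ctrl, 0, 0 and 4.50 CPM in BM-AML, 0.0434, 0 and 0.924 CPM in Lung-Ctrl and 0.497, 0.299 and 0.0832 CPM in Lung-AML. A count of 0 allows up to 0.194 and 0.114 CPM in BM-AML 1 and 2 and 0.115 CPM in Lung-Ctrl 2. All 129 BM-AML counts of Car12 came from 1 library, and no comparison of the gene passed. Car5b stood at 1.67, 1.31 and 0.539 CPM in BM-Ctrl and 2.26, 1.07 and 0.105 CPM in BM-AML, which overlapped (log2 −0.07 ± 0.80, adjusted p = 0.964). Lung-Ctrl held 6.04, 4.87 and 4.66 CPM of Car5b and Lung-AML 7.29, 6.97 and 12.2 CPM, without overlap but without a call (log2 0.76 ± 0.77, adjusted p = 0.748).

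Whether the effect of AML differed between marrow and lung was tested as an interaction, which uses the same 12 libraries as the effects above. It passed for 5 of 8 members, against 30.7% of all genes tested (16.1% lower, 14.6% higher). The marrow effect was lower than the lung effect by log2 5.59 ± 0.66 for Car1 (−5.59, adjusted p = 0.000248), and the difference was −3.03 ± 0.57 for Car2 (adjusted p = 0.00269) and −4.95 ± 1.08 for Car3 (adjusted p = 0.00563). It was higher by 6.72 ± 1.60 for Car4 (adjusted p = 0.00888) and by 2.95 ± 0.33 for Car8 (adjusted p = 0.000203). Car5b, Car12 and Car13 had differences of −0.83 ± 1.11, 0.04 ± 2.62 and −0.26 ± 0.59, and none passed. Single libraries moved the size but not the call: the difference was −4.93 for Car1 without Lung-AML 1, −3.76 for Car2 and −6.22 for Car3 without BM-AML 1, and for Car4 9.54 without BM-Ctrl 2, 5.41 without BM-AML 3 and 7.84 without Lung-AML 2.

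**Figure D4:**
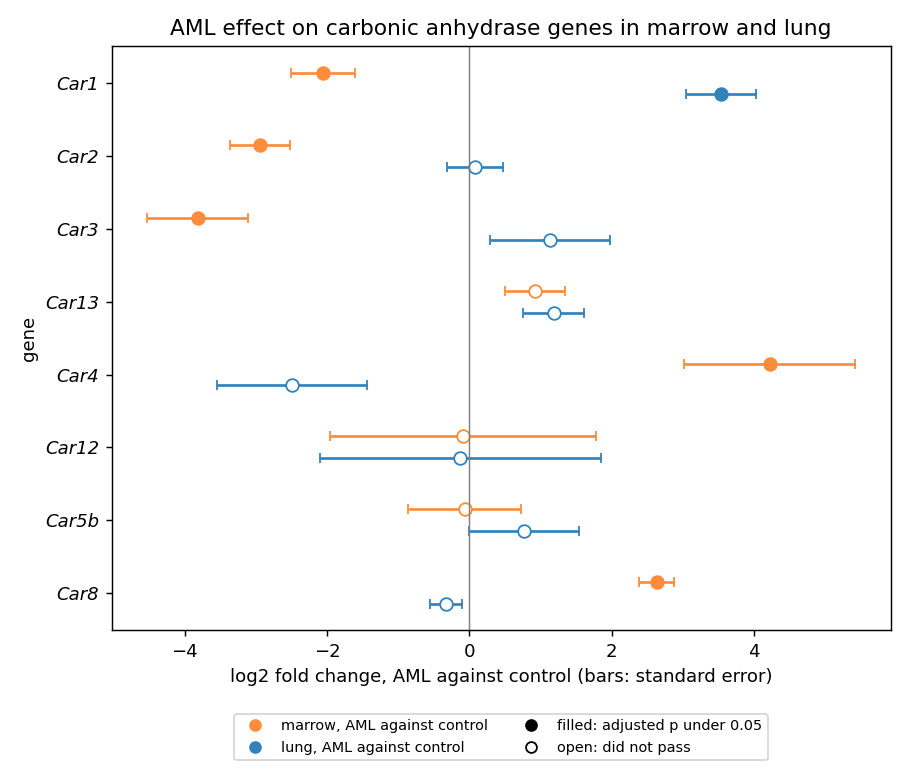
Log2 fold change of each member, AML against control, in marrow and lung, with bars of 1 standard error and filled points where the adjusted p was under 0.05. Car1 lies at −2.06 in marrow and 3.53 in lung, Car4 at 4.22 and −2.50, and Car8 at 2.63 and −0.33.

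Between the tissues of control mice, 7 of 8 members passed, against 64.2% of all genes tested (29.4% higher, 34.7% lower in marrow). The groups did not overlap for the same number, 7 of 8, against 74.8% of all genes. Higher in BM-Ctrl than in Lung-Ctrl were Car1 (log2 10.10 ± 0.64), Car3 (9.91 ± 0.96), Car2 (5.78 ± 0.48) and Car13 (1.29 ± 0.43). Lower were Car4 (−7.13 ± 1.34), Car8 (−6.17 ± 0.28) and Car5b (−2.13 ± 0.81, adjusted p = 0.0371). The calls of Car5b and Car13 were the weak ones: 9 of 12 libraries, left out in turn, ended that of Car5b (adjusted p up to 0.115, all of BM-Ctrl, Lung-Ctrl and Lung-AML), and BM-Ctrl 1 and 2, Lung-Ctrl 1 and 2 or dropping the filter ended that of Car13 (up to 0.0804). Car4 lay at −9.97 without BM-Ctrl 2 and at −8.17 under limma-voom.

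With AML in both tissues, 5 of 8 members differed, against 47.6% of all genes tested (22.4% higher, 25.2% lower in marrow), and the groups did not overlap for 5 of 8, against 59.0%. Car3 (log2 4.96 ± 0.78), Car1 (4.52 ± 0.50) and Car2 (2.76 ± 0.42) were higher in BM-AML than in Lung-AML, and Car8 (−3.22 ± 0.24) and Car5b (−2.97 ± 0.83, adjusted p = 0.0125) were lower. The Car5b call was lost when only these 6 libraries were fitted (adjusted p = 0.0507). Car4, at −0.42 ± 1.01, did not pass here, and its groups overlapped. Nor did Car13, whose groups also overlapped (log2 1.02 ± 0.42, adjusted p = 0.0659), but it passed without BM-AML 1 (adjusted p = 0.00976), with library totals (0.0155), with the filter of 5 CPM (0.0284) and under DESeq2 (0.0321). Without BM-AML 1 the differences were 2.0 for Car2, 3.68 for Car3 and −3.92 for Car5b, and without Lung-AML 1 that of Car1 was 5.15.

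The genes nearest to each member were found by the root mean square difference of log2 levels, centred per gene over the 12 libraries, among 11271 candidates. Nearest to Car1 were the erythroid regulator Klf1 (0.42) and the blood group gene Rhd (0.61). Among the genes near Car2 was the biliverdin reductase gene Blvrb (0.30). For Car3 they were Bglap, which encodes the bone protein osteocalcin (0.65), and the collagen gene Col11a1 (0.67). Car8 had the tight junction gene Ocln (0.26) and Shroom3 (0.27), and Car13 had Tiam2 and Ptprd (both 0.40). Car5b was nearest to Zfp710 (0.39) and Zc3h12c (0.53). Car4 had no close match, with Tmem221 at 1.10 and Tmeff1 at 1.30, nor had Car12, with Cilp at 1.10 and Crispld1 at 1.27.

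Of the 8 other carbonic anhydrase genes, 4 were tested. Car11, a secreted member without catalytic activity, rose in marrow from 1.26, 0.904 and 1.32 CPM to 3.36, 5.84 and 10.5 CPM (log2 2.50 ± 0.56, adjusted p = 0.00419). Car14, a transmembrane enzyme, held 11.3, 60.1 and 16.7 CPM in Lung-Ctrl and 1.32, 2.48 and 1.33 CPM in Lung-AML, a difference that did not pass (log2 −4.10 ± 1.01, adjusted p = 0.0612). It shares 17.5% of its exon bases with Aph1a on the other strand, which counting without strand cannot separate. Car7 and Car9, the latter a hypoxia-inducible tumour antigen, passed in no comparison. Car9 shares 9.29% of its exon bases with Gm12454 on the other strand, with the same limit. Car5a, Car10 and Car15 had at most 12 counts in any library, and Car6 had 0 counts in all 12, which allows up to 0.0104 CPM over all libraries. Car15 shares 65.7% of its exon bases with Gm20518 on the same strand, and Car5a 23.5% with BC048644 on the other strand. These counts cannot separate such reads.

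Several transporters of bicarbonate and protons changed in marrow. Of 18 bicarbonate transporters tested, 7 rose and 3 fell in marrow, 0 were called in lung, and the difference between the tissues passed for 6. Slc4a1, the red cell anion exchanger and also an erythroid list gene, fell from 2078 ± 710 to 47.8 ± 72.7 CPM (SD, n = 3). Slc4a3 (log2 3.36 ± 0.52, adjusted p = 0.000483) and Slc26a11 (3.11 ± 0.34, adjusted p = 6.54e-05) rose. Of 14 proton and monocarboxylate transport genes, 4 rose and 4 fell in marrow, 0 were called in lung, and the difference between the tissues passed for 6. The lactate carrier Slc16a1 fell (log2 −2.19 ± 0.24, adjusted p = 7.41e-05) and the scaffold gene Slc9a3r1 rose (2.63 ± 0.28, adjusted p = 5.60e-05). These counts stand beside 43.8% of all genes called in marrow, 2.33% in lung and 30.7% in the difference between the tissues.

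Of 15 hypoxia-inducible genes, Car9 included, 11 rose and 1 fell (Pdk1) in marrow, with a median log2 change of 1.69 against −0.11 over all genes. Bnip3, a mitophagy receptor, rose 15.8-fold (log2 3.98 ± 0.30, adjusted p = 1.50e-05), and Adm, which encodes adrenomedullin, 29.7-fold (log2 4.89 ± 0.54, adjusted p = 7.12e-05). In lung 1 of 15 rose, Bnip3 (log2 1.51 ± 0.27, adjusted p = 0.0173). Of 8 carboxylases and sensors that use bicarbonate, 0 rose and 3 fell in marrow, Pccb, Pcx and Cad, by 2.56-, 3.08- and 2.52-fold, and 0 were called in lung. The counts of both lists stand beside 20.4% of all genes higher and 23.5% lower in marrow, and 2.33% called in lung. Car5b, whose product supplies such carboxylases, did not pass in either tissue.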

How the data were processed

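Expression was measured in 12 libraries, 3 in each of 4 groups assigned by the titles. The authors deposited raw whole-number counts per gene symbol with no normalization, and per the submitters' processing notes bcl2fastq and STAR were used with mm10. No version, annotation, counter or filter is named there (not given in the sources used here), and per the file names strand was ignored. No pair of libraries was identical and 0 rows named no gene.

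From these counts, edgeR 4.0.16 in R 4.3.3 fitted 1 robust quasi-likelihood model of 4 groups (8 residual degrees of freedom). Its default filter, at a minimum count of 10 and a total of 15, kept 18147 genes, and TMM factors were 0.865 to 1.25. There were 5 comparisons: AML against control in each tissue, their interaction, and marrow against lung in each condition. Standard errors were derived from the fold change and its F value. Lengths are exon unions of GENCODE M21 on GRCm38, and a count of 0 was read against a floor of 3 counts. Totals of 12.8 to 39.2 M counts per library set the precision. Logarithms of single libraries used a prior count of 2.

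The members and all 24 gene lists (18 of cell markers, 6 of pathways) were chosen with earlier results of these data known. Named were all members, up to 3 called genes per pathway list and comparison with the smallest p and at least 10 CPM, up to 2 genes per marker list by level, and the 2 genes most like each member (1 of these is not reported here). Others (the erythroid, osteolineage and hypoxia genes given by name with a count, and Aqp3) were named after their values were seen. The ratios were tested with exact permutation tests.

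Alternatives were DESeq2 1.42.0 size factors and its Wald test, limma 3.58.1 (voom with quality weights), library totals, TMM factors without blood and lung epithelium lists, no filter, 5 CPM in 3 libraries, no robust option, a replicate block, only the libraries compared, and each library left out. The test was checked on simulated data.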

Additional observations from a re-analysis of the deposited data

Results flagged for a closer look

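For 5 members the effect of AML differed between marrow and lung in the interaction of the edgeR quasi-likelihood test. The marrow effect minus the lung effect, on the log2 scale, was −5.59 for Car1 (adjusted p = 0.000248), −3.03 for Car2 (0.00269) and −4.95 for Car3 (0.00563), and it was 6.72 for Car4 (0.00888) and 2.95 for Car8 (0.000203). For all 5 members the 2 effects had opposite signs, but only for Car1 did the lung effect pass by itself. The lung effects of the others were log2 0.08 for Car2, 1.13 for Car3, −2.50 for Car4 and −0.33 for Car8. Over all genes tested, 30.7% passed the same test, and the median difference was −0.09. Of 15 erythroid genes, 14 passed the interaction, all lower, as Car1 was. In marrow 14 of them fell and in lung 6 rose and 9 did not pass, and the part of this list in these differences was not tested.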

How the results depend on the processing

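The number of members called stayed within 1.5 times of the main count in 107 of 109 alternative fits. The exceptions were in lung, where DESeq2 and limma-voom each called 2 members instead of 1 (the second was Car13 and Car4, respectively). Of 865 alternative values of single members, 802 kept their direction and their side of the threshold, 18 lost a call, 10 gained one and 35 changed sign. All changes of sign concerned differences that were not called, and the cause was not tested.

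In marrow the log2 change of Car5b (−0.07) turned to 0.0083 with DESeq2 size factors, 0.0076 with the DESeq2 test, 0.27 with library totals, 0.18 with the filter of 5 CPM and 0.091 with only the libraries compared, and ranged from −1.01 to 0.48 with each library left out. That of Car12 (−0.09) became 0.16 with library totals and 0.049 with only the libraries compared, with a range of −8.26 to 1.42. In lung, Car12 (−0.13) gave 0.78 under limma-voom and ranged from −0.75 to 3.54, and Car2 (0.08) ranged from −0.10 to 0.30. In the interaction, Car12 (0.04) gave −4.78 under limma-voom and ranged from −8.13 to 1.55, and Car13 (−0.26) gave 0.13 with library totals and ranged from −0.54 to 0.076. Between the AML tissues, Car12 (2.33) gave −1.88 under limma-voom and ranged from −5.85 to 2.94, and Car4 (−0.42) ranged from −1.74 to 0.67.

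The labels do not say whether marrow and lung libraries of one number share a mouse, and same-numbered libraries of different groups correlated at −0.162 to 0.183, so the number was not treated as a pairing. With a replicate block the members called stayed at 5, 1, 5, 7 and 5 in marrow, lung, the interaction, the control tissues and the AML tissues, and Car12 changed sign in lung (2.11), the interaction (−4.94) and the AML tissues (−0.39). Scaling by library totals alone moved the median of all genes by 0.28 in marrow, 0.39 in the interaction and 0.41 between the AML tissues, and DESeq2 size factors moved it by −0.10 between the control tissues. Under library totals Car13 passed in marrow (adjusted p = 0.0365). Levels per kb with the longest transcript as length moved by more than 1 SD in 11 of 32 cases. Over the 3 libraries of a group, counts were as low as 26 for Car12 and 35 for Car3 in Lung-Ctrl, 66 for Car5b in BM-AML and 89 for Car4 in BM-Ctrl.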

Other observations

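Water and gas channels, which pass water, ammonia or carbon dioxide across membranes, were measured beside the carbonic anhydrases. Of 8 tested, 1 rose (Aqp3) and 1 fell (Aqp1) with AML in marrow. Aqp1, the water channel of red cells and endothelium, went from 1765 CPM in BM-Ctrl to 67.7 CPM in BM-AML (log2 −4.71 ± 0.84, adjusted p = 0.00111 in edgeR). In lung Rhag, the Rh-associated channel of the erythroid lineage, rose from 1.20 to 39.8 CPM (log2 5.04 ± 0.57, adjusted p = 0.00250), and it is also a gene of the erythroid list.

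The other marker lists give the makeup of the libraries beside which the carbonic anhydrase values stand. With AML in marrow, 7 of 9 mast cell and basophil genes tested rose and 0 fell, beside 20.4% of all genes higher and 23.5% lower. The list summed to 18.6 to 63.2 CPM in BM-Ctrl and 134 to 298 CPM in BM-AML. Kit held 25.6 of the mean sum of 40.7 CPM in BM-Ctrl and 86.4 of 236 CPM in BM-AML. Hdc held 1.70 and 80.3 CPM of these sums. In lung 0 of those 9 rose and 1 fell (Kit). Of 9 neutrophil genes 0 rose and 1 fell in marrow and 0 were called in lung, and of 11 monocyte and macrophage genes 0 were called in either tissue, and in lung Lyz2 alone, which alveolar type 2 cells also express, held 30592 of the mean sum of 30696 CPM in Lung-Ctrl and 31581 of 31658 CPM in Lung-AML, while the receptor gene Csf1r averaged 21.0 and 22.3 CPM. Megakaryocyte and platelet genes had 1 of 9 higher and 2 lower in marrow and 0 called in lung. Of 2 eosinophil genes tested 0 were called in either tissue, and all 7 listed were at 0 in BM-AML. T, NK and B cell genes had 1 of 11 higher and 2 lower in marrow and 0 called in lung. The general capillary list had 1 of 9 higher and 2 lower in marrow and 0 higher and 4 lower in lung. Alveolar type 1 genes had 3 of 10 higher and 1 lower in marrow and 2 lower in lung, and 9 airway genes had 0 called in either tissue. Ptprc, the pan-leukocyte gene, averaged 5.20 ± 2.67 CPM in BM-Ctrl, 1.77 ± 2.80 in BM-AML, 38.7 ± 10.3 in Lung-Ctrl and 24.4 ± 2.46 in Lung-AML (SD, n = 3).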
